A study of Mus musculus with 30 samples.

Results

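Gene expression in the mouse embryonic ovary at 14.5 days post coitum (dpc) was compared with that at 12.5 dpc, the interval in which female germ cells enter meiosis. The comparison used the 12 arrays whose titles name these ages, of 30 arrays in all. It was made within each of 3 Affymetrix array types, called A, B and C, which carry different probe sets. Each age was represented by 2 numbered samples with 1 array of each type, so 4 of the 10 samples of the time course stood in the comparison. Per the labels, every sample was TRIzol RNA of pooled ovaries of BL/6-129 mice, with no treatment and no engineered allele named. At 12.5 dpc female gonads were told apart by a PCR of Sry, while the labels of 14.5 dpc mention no sexing. It is not stated that the 2 samples of an age were separate pools, so p-values measure only how these samples vary, and that variation may be technical.

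Germ cells that reach the gonad first keep a program shared with pluripotent stem cells and divide by mitosis. In the ovary, retinoic acid and BMP signals lead to expression of Stra8, and STRA8 with its partner MEIOSIN turns on genes of meiotic prophase. Chromosomes replicate a last time, build an axis of meiotic cohesins and synaptonemal complex proteins, and break their DNA to recombine. Around the germ cells, pregranulosa cells, stroma, vessels and the surface epithelium form the somatic part of the ovary.

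At 14.5 dpc genes of meiotic entry were higher and a group of pluripotency genes was lower. Outside the germ cell lists, some genes of surface epithelium, among them Krt19, and the adult beta globin Hbb-b2 were higher. The embryonic globin Hba-x was lower. Signals were fitted as log2(signal + 16) with limma over all 5 ages, and folds below are differences on that scale, where the added 16 shrinks the folds of dim genes. A probe set was called at a Benjamini-Hochberg adjusted p under 0.05. Of 24825 tested probe sets, 412 were called (1.66%), 269 of them higher (1.08%) and 143 lower (0.576%). By array type, 2.83% of A, 1.46% of B and 0.814% of C probe sets were called. The groups did not overlap in 47.1% of the tested probe sets, the 412 called ones among them. Among 12589 named genes, each read from its brightest tested probe set, 202 were higher (1.6%) and 71 lower (0.564%), with a median log2 change of 0.011 over all of them. At an unadjusted p under 0.05 in the same limma fit, 1206 of the 12589 were higher and 902 lower. The smallest change that was called was 0.653 on the log2 scale. Leaving out 1 sample cut the called probe sets. They were 112 without the first sample of 12.5 dpc, 133 without its second, 221 without the first sample of 14.5 dpc and 153 without its second. Leaving out a sample of 11.5 dpc, which enters only the shared estimate of spread, raised the count to 815 or 830.

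**Figure D1:**
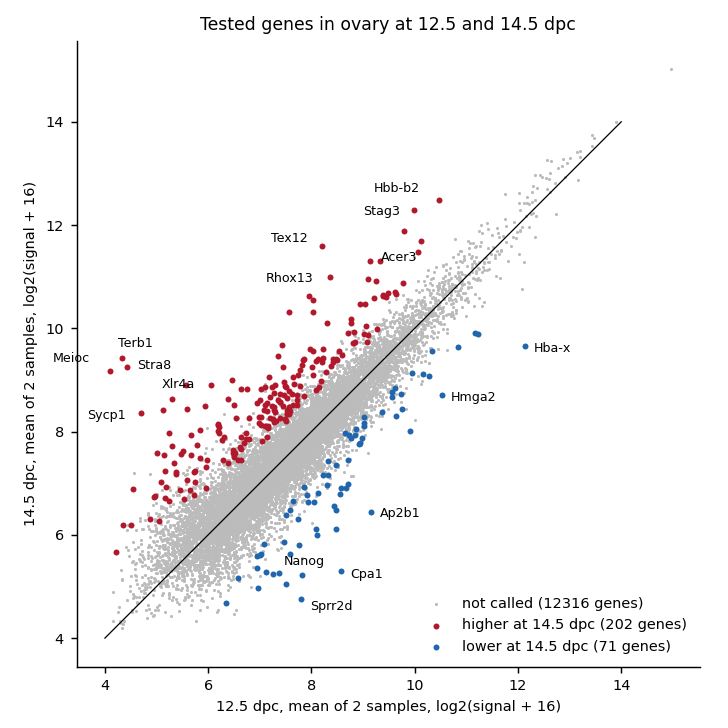
Mean log2(signal + 16) of the 2 samples of 12.5 dpc (x axis) and of 14.5 dpc (y axis) for each tested gene, with the line of equal signal. The 202 genes called higher lie above the line, with Terb1, Meioc and Stra8 farthest from it, and the 71 called lower lie below it, with Hba-x at the highest signal.

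The 2 samples of an age correlated across probe sets with r of 0.884 to 0.967 over the array types, and samples of different ages with 0.844 to 0.935. Genes are not independent replicates in these values. On each array 51.4% to 63.0% of probe sets reached a signal of 50. The 3' to 5' ratio of the beta-actin control, which is higher where the labelled transcripts are shorter, was 1.19 and 1.31 at 12.5 dpc and 1.74 and 2.23 at 14.5 dpc, so the ages did not overlap. That of Gapdh was 0.837 and 0.842, then 0.899 and 0.956, and that of the control named PyruCarb 2.0 and 1.63, then 3.07 and 2.39. That of the control named TransRec overlapped, with 2.78 and 2.45, then 2.45 and 3.6. The part of these differences in the results below was not tested. The germ cell markers Dazl and Ddx4 and the gonadal factors Nr5a1, Gata4 and Wnt4 had signals of 137.6 or more in all 4 samples. The testis hormone Amh stayed at or below 20.5, and the probe sets of the Y-linked Kdm5d, Uty and Eif2s3y at or below 37.2. The Sertoli cell gene Sox9 had 644 and 823 at 12.5 dpc and 822 and 776 at 14.5 dpc, on a probe set with the suffix f_at, which can match more than 1 gene. Its other tested probe sets had signals of 39.1 to 130.9. The testis markers Dhh and Ptgds also had signal, 346.6 to 434.6 on an s_at and 350.6 to 508.6 on an f_at probe set. Neither was called between the ages. Insl3 and Cyp17a1 stayed at or below 59.3 and 14.4.

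Of 28 entries in the list of meiotic entry and chromosome axis genes, 15 were on the arrays and 14 passed the filter on low signal. Of these 14, 9 were called higher and none lower, also none at an unadjusted p under 0.05, against 1.6% of all tested genes called higher. The median log2 change of the 14 was 2.41. All lists were drawn up with earlier results of these data known, so the shares called, here and below, are descriptions only. A gene silent at 12.5 dpc entered the test through the ages at which it was high, here and in the lists below. The tested members are therefore not the whole list. The count was 8 when any 1 sample of 12.5 or 14.5 dpc was left out, and the call lost each time was Rec8.

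The earliest acting genes of the list went from near the bottom of the scale to clear signal. Stra8, the retinoic acid target that starts the meiotic program, had signals of 8.6 and 2.7 at 12.5 dpc and 699 and 496 at 14.5 dpc. This was a 28.2-fold rise (log2 change 4.82 ± 0.30, SE; adjusted p = 8.7e-06). Meioc, which keeps germ cells in meiotic prophase by control of RNA decay with Ythdc2, had 1.6 and 0.8 at 12.5 dpc and 762 and 411 at 14.5 dpc, a 33.5-fold rise (adjusted p = 8.7e-06). The Meioc probe set carries the suffix i_at, which can match more than 1 gene. Both samples of 12.5 dpc were low and both of 14.5 dpc high for each gene. Ythdc2 itself had 76.1 and 36.3 at 12.5 dpc and 82.5 and 71.3 at 14.5 dpc, and was not called (adjusted p = 0.69). The Stra8 signal peaked at 14.5 dpc, with means of 72.8 at 16.5 dpc and 16.4 at 18.5 dpc, while Meioc had 320.2 and 103 at those ages.

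Terb1 and proteins of the synaptonemal complex, which pairs the chromosomes, rose as well. Terb1, a subunit of the complex that fixes meiotic telomeres to the envelope, had 5.1 and 3.0 at 12.5 dpc and 632 and 716 at 14.5 dpc (34.4-fold, adjusted p = 9.7e-06). Its probe set carries the suffix i_at, and a second Terb1 probe set with the plain suffix rose as well, from 22.7 and 10.4 to 135.3 and 135.4 (adjusted p = 0.022). Sycp1, the transverse filament of the synaptonemal complex, had 7.5 and 13.0 at 12.5 dpc and 404 and 239 at 14.5 dpc (12.5-fold, adjusted p = 8.7e-06). Its mean went on to 679 at 16.5 dpc and 903 at 18.5 dpc, so that unlike Stra8 it had its highest mean at the last age. Tex12, a central element protein, was already at 280.1 and 274 at 12.5 dpc and reached 2909.5 and 3245 at 14.5 dpc (10.5-fold, adjusted p = 7.8e-06). A second Tex12 probe set, of the r_at kind, had a log2 change of 1.038 and was not called. The central element partners Syce1 and Syce2 rose 5.71-fold (adjusted p = 0.0028) and 2.53-fold (adjusted p = 0.0028). Sycp3, an axis core protein, had 6.2 and 9.1 at 12.5 dpc and 95.2 and 180.3 at 14.5 dpc on an i_at probe set but was not called (adjusted p = 0.07). Sun1, the envelope protein to which TERB complexes connect, had 181 to 203 in all 4 samples (adjusted p = 0.98).

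Among cohesins, the meiotic subunits Stag3 and Rec8 were called higher and the mitotic ones measured did not pass the test. The meiotic subunit Smc1b had no probe set assigned to it alone. Stag3, the meiotic stromal antigen, had 1088 and 904 at 12.5 dpc and 3576 and 6973 at 14.5 dpc on an f_at probe set (4.97-fold, adjusted p = 0.00097). A second Stag3 probe set rose from 14.5 and 7.3 to 195 and 191 (adjusted p = 1.9e-05). Rec8, the meiotic kleisin, had 679 and 633 at 12.5 dpc and 1563 and 1567 at 14.5 dpc, a 2.35-fold rise (adjusted p = 0.026). Smc1a, Smc3, Rad21, Stag1 and Stag2 of the mitotic complex were not called, and Rad21 was nearest, with a log2 change of -0.66 (adjusted p = 0.054). Esco2, the acetyltransferase that locks cohesin on replicated DNA, was the member called of 14 tested in the list of mitotic cohesin and its regulators. It had 459.7 and 494.5 at 12.5 dpc and 1606 and 1233 at 14.5 dpc, a 2.89-fold rise (adjusted p = 0.0028), and its mean was back at 389 by 18.5 dpc. Another Esco2 probe set had a log2 change of 0.757 and was not called.

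The enzymes that make and repair meiotic DNA breaks were higher in part. Of 18 tested recombination genes, 3 were higher, 16.7% against 1.6% of all tested genes. None was lower (1 at an unadjusted p under 0.05), and the median log2 change was 0.38. Spo11, which makes the programmed DNA breaks, had 305 and 293 at 12.5 dpc and 1223 and 968 at 14.5 dpc (3.51-fold, adjusted p = 0.0034). Atr, a kinase that signals unrepaired breaks and unpaired chromosomes, had 220.5 and 209.9 at 12.5 dpc and 795 and 549 at 14.5 dpc (2.93-fold, adjusted p = 0.00097). Dmc1, the meiotic strand exchange protein, had 23.2 and 33.0 at 12.5 dpc and 129 and 77.6 at 14.5 dpc (2.66-fold, adjusted p = 0.02). Its call was lost without either sample of 12.5 dpc or without replicate 1 of 14.5 dpc. Spo11 and Atr had their highest means at 16.5 dpc, 1750.1 and 1340.5. The mismatch repair partners Msh4 and Msh5, which hold crossover intermediates, had log2 changes of 1.14 (adjusted p = 0.22) and 1.15 (adjusted p = 0.16). Brca1, Rad51c and Hus1, which repair breaks in dividing cells too, had log2 changes of 0.09, 0.02 and 0.05.

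**Figure D2:**
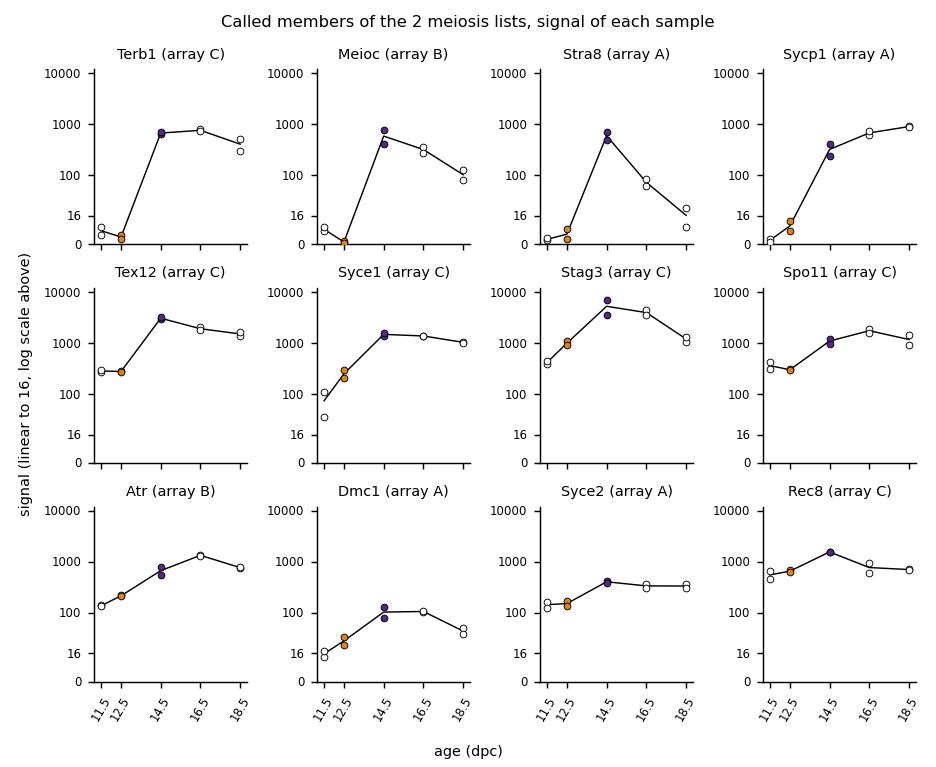
Signal (y axis, linear up to 16 and on a log scale above it) of the 12 called members of the 2 meiosis lists at 11.5 to 18.5 dpc (x axis), with 1 point per sample and a line through the means of 2 samples. Orange points are 12.5 dpc and purple points 14.5 dpc. Stra8 falls from its peak at 14.5 dpc to a mean of 16.4 at 18.5 dpc, while Sycp1 goes on rising to 903.

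Of the 11 called meiosis genes with a promoter in the table, 5 that hold a marked motif are shown, and Stra8 as one that holds neither. They are shown because MGA, MAX and E2F6 are known to keep many germline genes silent in other cells through an E-box and an E2F type site. Each sequence is the 250 bases before the RefSeq transcription start (assembly GRCm38.p6), written in the direction of the gene. Capitals mark the letters CACGTG, the E-box of MAX dimers, or TCCCGC, the core of the E2F6 and E2F site, on either strand, so that GCGGGA is TCCCGC of the other strand. The Terb1 stretch is chr8:104509888-104510137 (minus strand), Tex12 is chr9:50561269-50561518 (minus strand), Sycp1 is chr3:102936101-102936350 (minus strand), Stag3 is chr5:138280259-138280508 (plus strand) Rec8 is chr14:55617916-55618165 (plus strand) and Stra8 is chr6:34920698-34920947 (plus strand).
Terb1: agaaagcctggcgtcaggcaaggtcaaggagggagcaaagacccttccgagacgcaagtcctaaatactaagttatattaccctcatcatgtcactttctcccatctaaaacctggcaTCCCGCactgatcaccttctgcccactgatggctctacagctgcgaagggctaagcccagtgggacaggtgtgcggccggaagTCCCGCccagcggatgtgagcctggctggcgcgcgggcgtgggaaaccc
Tex12: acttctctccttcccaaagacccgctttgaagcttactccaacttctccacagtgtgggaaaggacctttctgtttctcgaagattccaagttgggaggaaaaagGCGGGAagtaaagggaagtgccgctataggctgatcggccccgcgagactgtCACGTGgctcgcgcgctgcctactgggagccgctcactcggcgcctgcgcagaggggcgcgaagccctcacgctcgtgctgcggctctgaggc
Sycp1: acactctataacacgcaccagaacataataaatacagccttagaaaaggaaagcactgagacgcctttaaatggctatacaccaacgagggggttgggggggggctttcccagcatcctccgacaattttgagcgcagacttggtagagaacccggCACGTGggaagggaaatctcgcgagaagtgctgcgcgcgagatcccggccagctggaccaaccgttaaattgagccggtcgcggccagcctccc
Stag3: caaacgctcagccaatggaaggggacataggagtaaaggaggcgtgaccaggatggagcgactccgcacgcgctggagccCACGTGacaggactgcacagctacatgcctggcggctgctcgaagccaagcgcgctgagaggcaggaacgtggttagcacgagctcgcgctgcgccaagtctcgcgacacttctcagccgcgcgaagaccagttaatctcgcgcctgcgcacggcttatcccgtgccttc
Rec8: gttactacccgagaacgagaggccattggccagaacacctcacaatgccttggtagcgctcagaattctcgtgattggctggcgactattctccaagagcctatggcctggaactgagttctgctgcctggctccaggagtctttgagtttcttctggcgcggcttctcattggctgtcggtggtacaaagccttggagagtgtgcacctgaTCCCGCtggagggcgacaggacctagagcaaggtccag
Stra8: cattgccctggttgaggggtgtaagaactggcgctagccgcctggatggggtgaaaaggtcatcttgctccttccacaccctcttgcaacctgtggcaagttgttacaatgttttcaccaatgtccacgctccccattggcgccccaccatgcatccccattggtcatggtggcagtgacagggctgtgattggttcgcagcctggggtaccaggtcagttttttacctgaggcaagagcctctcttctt

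In the Terb1 promoter TCCCGC began 132 and 49 bases before the start, and in that of Rec8 38 bases before it. Tex12 held CACGTG 93 bases and TCCCGC 145 bases before its start, while Sycp1 and Stag3 held CACGTG at 94 and 170 bases. TCCCGC was found in 6 of the 11 (54.5%), in 38.1% of the 176 promoters of genes called higher, in 38.1% of the 63 of genes called lower and in 29.2% of the 10087 of all tested genes. CACGTG was found in 3 of 11 (27.3%), in 8.52% of those called higher, in 3.17% of those called lower and in 8.13% of all tested genes. Neither was in any of the 7 promoters of called members of the pluripotency list. The letters CCTCAG, the core of a motif at STRA8-bound promoters, were in 2 of 11 (Stra8 and Tex12, 18.2%), against 31.8% of those called higher and 22.3% of all tested genes. TGACG, part of the site of CREB family factors, was in 4 of 11 (36.4%), against 26.2% of all tested genes. These shares describe letters in a window, and no binding was measured.

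Among 19 tested genes of germ cell RNA control and of the piRNA pathway, which silences transposons, 4 were higher. They were 21.1% of the list, against 1.6% of all tested genes. None was lower (none at an unadjusted p under 0.05 either), and the median log2 change was 0.74. Gtsf1, a piRNA pathway protein, had 155 and 141 at 12.5 dpc and 741 and 645 at 14.5 dpc (4.32-fold, adjusted p = 0.00046). Its mean held at 676 at 16.5 dpc and then rose to 2704.5 at 18.5 dpc. Tex101, a germ cell surface protein, had 178 and 138 at 12.5 dpc and 709 and 912 at 14.5 dpc (4.74-fold, adjusted p = 0.00031). Mov10l1, the helicase that starts piRNA processing, rose 2.30-fold (adjusted p = 0.009; its other probe set had a log2 change of -0.78 and was not called), and Rbm46, an RNA-binding protein needed for meiosis, rose 2.00-fold (adjusted p = 0.048). The call of Mov10l1 was lost without replicate 2 of either age, and that of Rbm46 without any of the 4 samples. The general germ cell markers were not called. Dazl had 926 and 532 at 12.5 dpc and 1185 and 431 at 14.5 dpc (adjusted p = 0.99), and Ddx4 had 178 and 138 against 279 and 294 (adjusted p = 0.11). Rnf17, a Tudor protein of germ granules, had 46.4 and 47.3 at 12.5 dpc and 324 and 196 at 14.5 dpc (adjusted p = 0.065). In bulk RNA a larger share of germ cells and more RNA per germ cell cannot be told apart.

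Outside the lists, several genes with known parts in meiosis, DNA repair and chromatin were called higher, and they are named here after their values were seen. Ccnb1ip1, the crossover regulator also called HEI10, had 27.5 and 31.7 at 12.5 dpc and 218 and 149.5 at 14.5 dpc (4.32-fold, adjusted p = 0.00058). Hsf2bp, which brings BRCA2 to meiotic breaks, had 909 and 824 at 12.5 dpc and 2849.6 and 4985 at 14.5 dpc (4.30-fold, adjusted p = 0.009). A further f_at probe set of Hsf2bp was called higher as well, while its r_at probe set had signals of 73.2 to 88.9. M1ap, a partner of crossover proteins, rose 2.67-fold on an f_at probe set (adjusted p = 0.0021). Ddx43, a germ cell helicase, had 48.1 and 42.9 at 12.5 dpc and 350.1 and 343 at 14.5 dpc (5.90-fold, adjusted p = 0.0028). Tcfl5, a transcription factor of the testis, had 70.8 and 79.6 at 12.5 dpc and 351 and 344 at 14.5 dpc (3.99-fold, adjusted p = 0.0061). The groups did not overlap for any of these, as for every called probe set, so this adds nothing to the calls.

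Further called genes act on chromatin or in repair, all but Setdb1 outside the lists. Mphosph8, the HUSH subunit that reads methylated H3K9, had 573 and 585 at 12.5 dpc and 1553 and 1504 at 14.5 dpc (2.60-fold, adjusted p = 0.0035). Setdb2, a SET domain protein related to H3K9 methyltransferases, rose 2.83-fold (adjusted p = 0.0014), and Setdb1, the H3K9 methyltransferase that silences retroviral elements in germ cells, 1.88-fold (adjusted p = 0.04). Setdb1 was the member called of 32 tested in the list of DNA methylation and germline gene repression. Ube2t and Ddb2, of crosslink and UV damage repair, rose 3.12-fold (adjusted p = 0.00087) and 2.78-fold (adjusted p = 0.0031). Hat1, which acetylates new histone H4, and Nabp1, a single-stranded DNA binding protein, rose 2.42-fold (adjusted p = 0.021) and 2.23-fold (adjusted p = 0.018). Hat1 was called on an f_at probe set, and its r_at probe set had a log2 change of 0.278 and was not called. Setdb2, Ube2t, Ccnb1ip1, Ddx43 and M1ap kept their calls whichever sample of 12.5 or 14.5 dpc was left out. Ddb2 and Mphosph8 lost theirs without replicate 1 of 12.5 dpc, Tcfl5, Hsf2bp, Hat1 and Setdb1 without 3 of the 4 samples, and Nabp1 without any of them.

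Germ cell genes of the X chromosome were higher in part. Of 10 tested members of the list of Rhox and X-linked germ cell genes, 4 were higher (40.0%, against 1.6% of all tested genes). None was lower, also at an unadjusted p under 0.05. Xlr4a, of the family related to the axis protein SYCP3, had 22.1 and 25.1 at 12.5 dpc and 507 and 289 at 14.5 dpc (10.1-fold, adjusted p = 7.3e-05). Xlr5a of the same family had 65.4 and 69.1 at 12.5 dpc and 435 and 337 at 14.5 dpc (4.79-fold, adjusted p = 0.00097). Members of this family are near copies, so signal may be shared between them. Rhox13, a homeobox gene of germ cells, had 408 and 242 at 12.5 dpc and 1695 and 2427 at 14.5 dpc (6.19-fold, adjusted p = 0.00021). The other Rhox genes were not called. Rhox9 had 5633 and 4717 at 12.5 dpc and 2838 and 4302 at 14.5 dpc (adjusted p = 0.36), and its mean was 214 at 18.5 dpc. Rhox5 and Rhox6 had log2 changes of -0.33 and -0.51, and their means were 137 and 8.3 at 18.5 dpc. Tktl1, a transketolase-like gene, rose 2.93-fold (adjusted p = 0.0036), a call lost without replicate 1 of 12.5 dpc or replicate 2 of 14.5 dpc.

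Over the whole X chromosome, 17 of 393 tested genes were higher and 6 lower (5.85% called), while the share called on the autosomes ran from 0.901% to 3.42%. This count includes the list members above, and no test of the chromosome was made. X-linked genes chosen after their values were seen include Fmr1nb, a cancer-testis gene, with 62.9 and 52.3 at 12.5 dpc and 296 and 232 at 14.5 dpc (3.79-fold, adjusted p = 0.00021). Its other probe set had a log2 change of -0.03 and was not called. Egfl6, a secreted matrix protein, had 1083 and 1111 at 12.5 dpc and 2658 and 4049 at 14.5 dpc on an i_at probe set (2.96-fold, adjusted p = 0.0049). Jade3, a subunit of a histone acetyltransferase complex, rose 2.41-fold (adjusted p = 0.017), and Hccs, which attaches heme to cytochrome c, 2.14-fold (adjusted p = 0.0072). Smaller rises were called for Hprt of purine salvage (1.90-fold, adjusted p = 0.012), Ezhip, an inhibitor of the Polycomb methyltransferase (1.84-fold, adjusted p = 0.048), Trap1a, a placenta and germ line gene (1.77-fold, adjusted p = 0.048) and the RNA-binding protein Fmr1 (1.73-fold, adjusted p = 0.044). Of these 8, Fmr1nb kept its call whichever sample was left out, and the calls of Jade3, Ezhip, Trap1a and Fmr1 were lost without any of the 4. Xist, the RNA of the inactive X chromosome, had 353 and 398 at 12.5 dpc and 295 and 149 at 14.5 dpc and was not called (adjusted p = 0.36).

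X-linked genes also stood among the falls. Gpc3, a glypican that restrains growth, had 1856 and 2822 at 12.5 dpc and 967.5 and 919 at 14.5 dpc, which was 2.40-fold lower (adjusted p = 0.039). Ddx3x, an RNA helicase, was 2.05-fold lower (adjusted p = 0.0099), Hmgn5, a nucleosome-binding protein, 2.23-fold lower (adjusted p = 0.0075), and Pls3, an actin bundling protein, 1.89-fold lower (adjusted p = 0.027). Ddx3x was called on an f_at probe set, and its plain probe set had a log2 change of -0.415 and was not called. Pls3 was already falling from a mean of 1142 at 11.5 dpc to 506 at 12.5 dpc. Mtm1, a phosphoinositide phosphatase, had 1019 and 885 at 12.5 dpc and 271 and 215 at 14.5 dpc on an f_at probe set (3.75-fold lower, adjusted p = 0.00033). A plain probe set of Mtm1 was called in the same direction, with 393 and 458 at 12.5 dpc and 63.5 and 67.5 at 14.5 dpc, while the remaining pair had log2 changes of 0.06 and 1.42 and was not called. Mtm1 kept its call whichever sample was left out, the call of Hmgn5 was lost without 3 samples, that of Ddx3x without 3, and those of Gpc3 and Pls3 without any.

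Pluripotency and primordial germ cell genes were lower in part, with 10 of 32 tested members lower (0.564% of all tested genes were) and none higher (1 at an unadjusted p under 0.05). Its median log2 change was -0.56, and 28 of the 32 were below 0. Pou5f1, the OCT4 transcription factor, had 521 and 313 at 12.5 dpc and 121.5 and 102 at 14.5 dpc (3.30-fold lower, adjusted p = 0.0031), while a dimmer Pou5f1 probe set had a log2 change of 0.56 and was not called. Nanog had 232 and 171 at 12.5 dpc and 33.1 and 47.6 at 14.5 dpc (3.86-fold lower, adjusted p = 0.0028), and Esrrb, an orphan nuclear receptor of the same network, 239 and 182 against 25.6 and 17.9 (5.98-fold lower, adjusted p = 0.016). A second Nanog probe set, of the f_at kind, had a log2 change of -0.981 and was not called. Sox2 had 494 and 447 at 12.5 dpc and 188 and 215 at 14.5 dpc on an r_at probe set (2.24-fold lower, adjusted p = 0.012). In the called probe sets of these genes both samples of 14.5 dpc lay below both of 12.5 dpc, as in every probe set called lower. Zfp42 was 3.98-fold lower (adjusted p = 0.0025) and Utf1 3.41-fold lower (adjusted p = 0.0038), 2 chromatin-bound factors of stem cells. Other Utf1 probe sets had log2 changes of -0.17 and -0.59 and were not called.

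The falls were of unequal depth at 14.5 dpc. Dppa4 and Dppa2, partner chromatin proteins, were 2.13-fold (adjusted p = 0.016) and 2.40-fold lower (adjusted p = 0.021), and Dppa5a, an RNA-binding protein, had 979.6 and 957 at 12.5 dpc and 588 and 502 at 14.5 dpc (1.76-fold lower, adjusted p = 0.044). Dppa5a and Sox2 reached their lower levels after 14.5 dpc, with means of 71.5 and 13.0 at 16.5 dpc. Tcl1, a cofactor of AKT, had 107 and 117 at 12.5 dpc and 38.1 and 27.8 at 14.5 dpc (2.63-fold lower, adjusted p = 0.0045) and was back at a mean of 138 at 18.5 dpc. The germ cell receptor Kit was not called (156 and 119 at 12.5 dpc, 70.2 and 96.0 at 14.5 dpc, adjusted p = 0.15) and had a mean of 305 at 18.5 dpc. Nor were Dppa3 (adjusted p = 0.28), Tfap2c (adjusted p = 0.099), Sall4 (adjusted p = 0.9) or Lin28a (adjusted p = 0.9). The count of 10 rested on each sample of both ages: it was 1 without replicate 1 of 12.5 dpc, 4 without replicate 2 of 12.5 dpc, and 5 without either sample of 14.5 dpc. Pou5f1, Nanog, Zfp42 and Utf1 lost their calls without replicate 1 of 12.5 dpc alone, and Esrrb, Sox2 and Dppa4 without any of the 4.

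**Figure D3:**
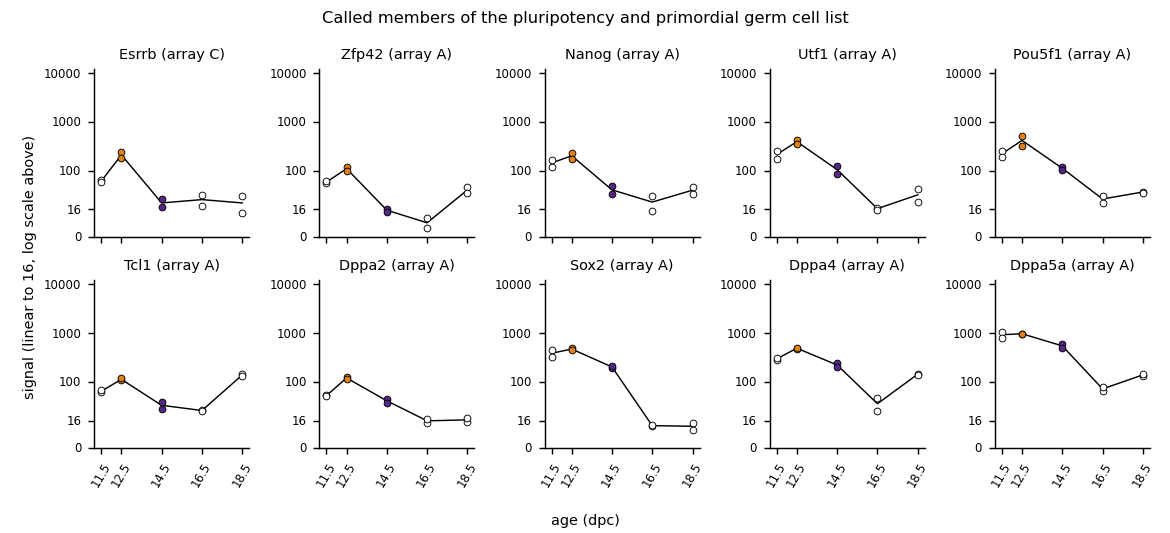
Signal (y axis, linear up to 16 and on a log scale above it) of the 10 called members of the pluripotency and primordial germ cell list at 11.5 to 18.5 dpc (x axis), with 1 point per sample and a line through the means of 2 samples. Orange points are 12.5 dpc and purple points 14.5 dpc. All 10 are lower at 14.5 than at 12.5 dpc, and Sox2 reaches a mean of 13.0 only at 16.5 dpc.

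Among 24 tested genes of FGF, EGF and KIT signalling, 2 were lower and none higher (3 at an unadjusted p under 0.05). The 2 were 8.33% of the list, against 0.564% of all tested genes, and both are known to be induced by FGF signalling. Etv5, an ETS transcription factor, had 264 and 233 at 12.5 dpc and 74.4 and 93.6 at 14.5 dpc (2.66-fold lower, adjusted p = 0.031). Dusp6, an ERK phosphatase, had 303 and 381.5 at 12.5 dpc and 158 and 139 at 14.5 dpc (2.17-fold lower, adjusted p = 0.021), and a second Dusp6 probe set fell from 191 and 286 to 50.6 and 37.0 (adjusted p = 0.0013). Other known targets were not called: Dusp4 had a log2 change of -1.0 (adjusted p = 0.2), Spry2 0.18 and Etv4 -0.01. The calls of Etv5 and of the brighter Dusp6 probe set were lost without any 1 of the 4 samples. Hmga2, a chromatin protein of growing embryonic tissue, had 1324 and 1623 at 12.5 dpc and 443 and 364 at 14.5 dpc (3.55-fold lower, adjusted p = 0.0002), and fell on to a mean of 91.3 at 18.5 dpc. Its call held whichever sample was left out.

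Genes of later oocyte growth were not called higher at 14.5 dpc by limma. Of 19 tested members, 1 was higher at an unadjusted p under 0.05, and the member called lower was Tcl1, which stands in both lists. Figla, a factor that activates zona pellucida genes, had 37.1 and 20.0 at 12.5 dpc and 90.5 and 76.7 at 14.5 dpc (adjusted p = 0.099) and a mean of 275 at 18.5 dpc. Nobox and Lhx8, factors of primordial follicles, had signals of 29.8 to 36.7 and 5.3 to 17.7 over the 4 samples, and means of 599 and 634 at 18.5 dpc.

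Among 19 tested genes of surface and mesothelial epithelium, 6 were higher at 14.5 dpc, 31.6% against 1.6% of all tested genes. None was lower (none at an unadjusted p under 0.05 either), and the median log2 change was 0.25. Krt19 had 48.4 and 68.2 at 12.5 dpc and 261 and 252 at 14.5 dpc (3.70-fold, adjusted p = 0.00035). A second Krt19 probe set, of the f_at kind, had a log2 change of 0.34 and was not called. Aldh1a1, an enzyme that makes retinoic acid, had 489 and 581.5 at 12.5 dpc and 2034 and 1899 at 14.5 dpc (3.61-fold, adjusted p = 0.00011). The paired keratins Krt8 and Krt18 rose 2.27-fold (adjusted p = 0.02) and 2.40-fold (adjusted p = 0.017), Krt7 2.00-fold (adjusted p = 0.046), and Upk3b, a mesothelial uroplakin, 2.31-fold (adjusted p = 0.018). Other members were not called, and 5 of the 19 had log2 changes below 0. Epcam had 455.5 to 556.5 in the 4 samples (adjusted p = 1.0), Cdh1 was not called (adjusted p = 0.76), and Upk1b had 492 and 719 at 12.5 dpc and 943 and 1209.5 at 14.5 dpc (adjusted p = 0.21). Summed over the 19, the signal was 5763 and 5753 in the samples of 12.5 dpc against 9035 and 9362 in those of 14.5 dpc. This sum adds across array types and is weighted to bright genes such as Aldh1a1, so it does not show a rise of the whole list. The 6 calls became 2, Krt19 and Aldh1a1, when any 1 of the 4 samples was left out.

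Other surface, adhesion and secreted genes, chosen after their values were seen, were higher with them. Cd44, the hyaluronan receptor, had 53.8 and 60.3 at 12.5 dpc and 253.5 and 232 at 14.5 dpc (3.55-fold, adjusted p = 0.0011), and its other probe set was called higher too. Anxa1, a membrane-binding annexin, rose 3.69-fold (adjusted p = 0.0048), Cav1, the coat protein of caveolae, 2.54-fold (adjusted p = 0.0061), and S100a6, a calcium-binding protein of epithelia and stroma, 2.10-fold (adjusted p = 0.017). The other Cav1 probe set had a log2 change of 0.08 and was not called. Efna1, a ligand of Eph receptors, had 29.9 and 34.4 at 12.5 dpc and 305 and 357 at 14.5 dpc on an r_at probe set (7.20-fold, adjusted p = 0.00087), and its plain probe set rose 1.84-fold (log2 change 0.88, adjusted p = 0.049). Basement membrane genes included Lama1 (1.70-fold, adjusted p = 0.039), its receptor Itga6 (1.71-fold, adjusted p = 0.048) and Frem2 (2.29-fold, adjusted p = 0.031). Of these, Efna1 and Cd44 kept their calls whichever sample was left out, and S100a6, Lama1, Itga6 and Frem2 lost theirs without any of the 4.

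Pregranulosa and gonadal somatic genes mostly did not pass the test: of 32 tested members 2 were higher and 2 lower. The share called was 12.5%, against 2.17% of all tested genes. Lgr5, a receptor of R-spondins on the ovarian surface and cortical pregranulosa cells, had 22.4 and 17.9 at 12.5 dpc and 123 and 89.8 at 14.5 dpc (3.36-fold, adjusted p = 0.0013). Gng13, a G protein subunit, had 129 and 64.6 at 12.5 dpc and 536 and 351 at 14.5 dpc (4.17-fold, adjusted p = 0.031), and reached a mean of 1498 at 18.5 dpc. Sprr2d, a small proline-rich protein, had 235 and 181 at 12.5 dpc and 15.7 and 7.2 at 14.5 dpc (8.19-fold lower, adjusted p = 0.0028). Nr0b1, the DAX1 receptor that opposes testis development, had 246 and 204 at 12.5 dpc and 92.0 and 94.9 at 14.5 dpc (2.19-fold lower, adjusted p = 0.027). The calls of Gng13 and Nr0b1 were lost without any 1 of the 4 samples and that of Sprr2d without replicate 1 of 12.5 dpc, while Lgr5 kept its call. Not called were Foxl2, the factor that maintains the female fate, with 243 and 92.8 at 12.5 dpc and 374 and 328 at 14.5 dpc (adjusted p = 0.088), Wnt4 (adjusted p = 0.69), Rspo1 (adjusted p = 0.93) and Kitl (adjusted p = 0.28).

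**Figure D4:**
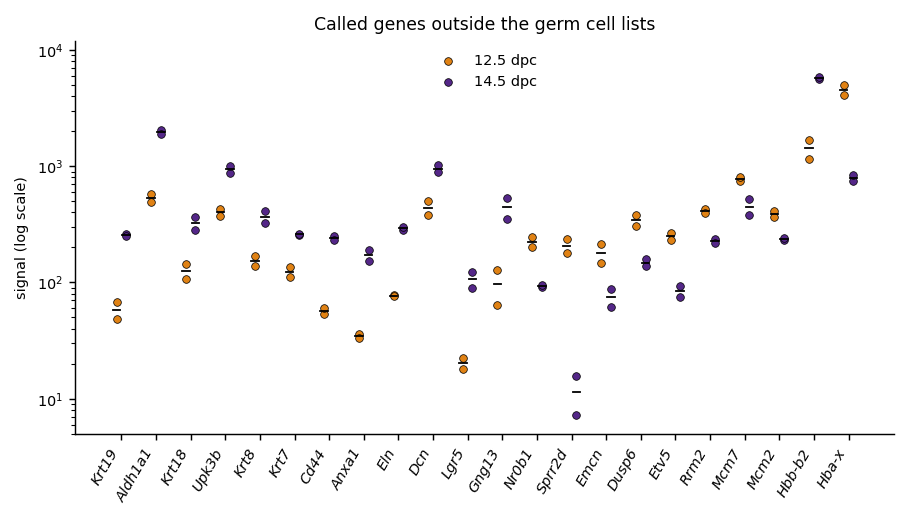
Signal (y axis, log scale) of 22 called genes outside the germ cell lists at 12.5 dpc (orange) and 14.5 dpc (purple), with 1 point per sample and a bar at the mean of 2 samples. Aldh1a1, Krt19 and the genes up to Gng13 are higher at 14.5 dpc, the genes from Nr0b1 to Mcm2 are lower, and of the globins Hbb-b2 is higher and Hba-x lower.

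Among genes of the signals that act on germ cells, 1 or 2 were called in each list, too few to compare the lists. The share called was 12.5% for retinoic acid, 2.22% for BMP, activin and TGF-beta and 5.13% for Wnt, against 2.17% of all tested genes. Of 16 tested genes of retinoic acid supply and response, 2 were higher and none lower (2 at an unadjusted p under 0.05). Beside Aldh1a1 this was Rbp4, the carrier of retinol, with 3.4 and 5.2 at 12.5 dpc and 38 and 82.1 at 14.5 dpc (3.59-fold, adjusted p = 0.048), a call lost without any 1 of the 4 samples. Aldh1a2, the main enzyme of retinoic acid synthesis in the mesonephros, had 310.2 and 317.5 at 12.5 dpc and 323 and 417 at 14.5 dpc (adjusted p = 0.76). The receptors Rara and Rarb had log2 changes of 0.14 and -0.05. Of 45 BMP, activin and TGF-beta genes 1 was lower, Kcp, a secreted regulator of BMP ligands (2.45-fold, adjusted p = 0.026), and its call was lost without 3 of the 4 samples. Bmp2, which is made by ovarian somatic cells, had 569 and 703 at 12.5 dpc and 1396 and 796 at 14.5 dpc (adjusted p = 0.28). The BMP target genes Id1, Id2 and Id3 had log2 changes of -0.09, -0.29 and -0.04. Of 39 Wnt genes 2 were higher, Lgr5 and Apcdd1, a Wnt antagonist (2.00-fold, adjusted p = 0.036), and the call of Apcdd1 was lost without any 1 of the 4 samples.

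For stroma and vessels, 5.13% of the matrix and mesenchyme list and 3.45% of the endothelial list were called, against 2.17% of all tested genes. Of 39 tested matrix and mesenchyme genes, Eln and Dcn were higher and none lower (4 at an unadjusted p under 0.05). Elastin (Eln) had 77.9 and 76.5 at 12.5 dpc and 283 and 302 at 14.5 dpc (3.31-fold, adjusted p = 0.00018) and went on to a mean of 874 at 16.5 dpc. Its other probe set had signals of 7.9 to 21.3 and a log2 change of -0.36, and was not called. Decorin (Dcn), a proteoglycan that binds collagen, rose 2.14-fold (adjusted p = 0.013), a call lost without 3 of the 4 samples. The collagens Col1a1 and Col3a1 had log2 changes of 0.08 and 0.07. Among 29 endothelial genes 1 was called, Emcn, a sialomucin of veins and capillaries, with 146 and 214 at 12.5 dpc and 88.3 and 61.2 at 14.5 dpc (2.15-fold lower, adjusted p = 0.04), a call lost without any 1 of the 4 samples. The median log2 change of that list was -0.36, and 19 of its 29 genes lay lower in both samples of 14.5 dpc than in both of 12.5 dpc, against 23.3% of all tested genes (25.9% lay higher in the same way). The summed signal of the 29 was 3873.5 and 3805 at 12.5 dpc and 3327 and 3127 at 14.5 dpc. It too adds across array types and is weighted to bright genes. No macrophage, smooth muscle, mesonephros or nerve marker was called by limma, of 13, 14, 9 and 11 tested. At an unadjusted p under 0.05 these lists had 0, 3, 0 and 0 members higher and 1, 1, 1 and 0 lower. Of 18 tested Sertoli and Leydig cell genes 1 was lower, the nuclear receptor Nr2f1 (3.02-fold, adjusted p = 0.047), and its call was lost without 3 of the 4 samples.

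Genes of the mitotic cycle lay mostly below 0 with small changes. Of 42 tested DNA replication genes, none was higher (5 at an unadjusted p under 0.05) and 3 were lower (7.14%, against 0.564% of all tested genes). They were Rrm2, which makes deoxyribonucleotides, with 429.6 and 392 at 12.5 dpc and 238 and 217 at 14.5 dpc (1.75-fold lower, adjusted p = 0.031), and the helicase subunits Mcm7 (1.72-fold lower, adjusted p = 0.036) and Mcm2 (1.60-fold lower, adjusted p = 0.046). The replication clamp Pcna had a log2 change of 0.14. Without replicate 1 of 14.5 dpc 1 of these calls was left, Mcm7, and none was left without any other sample of the 4. None of 49 mitosis genes was called by limma, with 2 higher and 12 lower at an unadjusted p under 0.05. At that p, 1206 of all 12589 tested genes were higher and 902 lower. The median log2 change of the 49 was -0.23, and 25 lay lower without overlap, against 23.3% of all tested genes. Cdk1, the kinase of mitotic entry, had 648 and 600.3 at 12.5 dpc and 416.5 and 379.7 at 14.5 dpc (adjusted p = 0.078), and Mki67, a marker of cycling cells, had 415 and 385.5 against 403.5 and 277 (adjusted p = 0.59). Lmnb1, a nuclear lamin, had 360.4 and 355 at 12.5 dpc and 105 and 86.0 at 14.5 dpc (3.36-fold lower, adjusted p = 0.00081). Other Lmnb1 probe sets had log2 changes of -0.30 and -0.26 and were not called.

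Among metabolic and ribosomal genes, 5.0% of the glycolysis list was called, against 2.17% of all tested genes. Of 20 glycolysis genes 1 was lower, the lactate dehydrogenase subunit Ldhb (1270.0 and 1184 at 12.5 dpc, 663 and 411 at 14.5 dpc, 2.31-fold, adjusted p = 0.0072), and its call was lost without 3 of the 4 samples. None of 24 cholesterol synthesis genes was called by limma, with 1 higher and 2 lower at an unadjusted p under 0.05. None of 19 ribosomal protein genes was called either, with 3 higher and 0 lower at that p, and their median log2 change was 0.26 on the deposited scale and 0.01 after quantile normalization. Among 25 apoptosis and p53 genes the stress genes Gadd45b and Gadd45g went opposite ways, 2.81-fold higher (adjusted p = 0.035) and 1.92-fold lower (adjusted p = 0.023). Leaving out any 1 of the 4 samples ended the first call, and leaving out 3 of them ended the second. The DNA methyltransferases Dnmt1, Dnmt3a and Dnmt3b and their guide Uhrf1 had log2 changes of -0.16, 0.18, 0.27 and -0.27. In the lists of imprinted and growth factor genes (30 tested) and of steroid genes (16 tested) the called members were Hmga2 and Nr0b1, described above. None of 31 Notch and Hedgehog genes or of 6 histone genes was called by limma, with 0 higher in either list and 1 and 2 lower at an unadjusted p under 0.05.

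Among globins, 1 embryonic gene was lower and 1 adult gene higher. Hba-x, the embryonic zeta globin, had 4076.5 and 4952 at 12.5 dpc and 741 and 839 at 14.5 dpc (5.61-fold lower, adjusted p = 6.5e-05), and its mean was 57.1 at 18.5 dpc. Hbb-b2, an adult beta globin, had 1150.5 and 1689.8 at 12.5 dpc and 5635 and 5848 at 14.5 dpc (4.08-fold, adjusted p = 0.00011). Both calls held whichever sample was left out. Hbb-y, an embryonic beta globin, still had 7712 and 7288 at 14.5 dpc against 8336 and 9950.2 at 12.5 dpc (adjusted p = 0.4), and its mean was 461 at 16.5 dpc. Adult alpha globin Hba-a1 had 5176 and 6835 at 12.5 dpc and 7705 and 7576 at 14.5 dpc (adjusted p = 0.28). Globins are near copies and can share signal. Of 19 erythroid genes a further member was called, the heme breakdown enzyme Blvrb (2.55-fold higher on an f_at probe set, adjusted p = 0.019), which is also made outside blood. The Blvrb call was lost without 3 of the 4 samples, and its other probe sets, with log2 changes of 0.39 and 0.18, were not called. The summed signal of the 19 was 21469 and 26517 at 12.5 dpc and 24634 and 25339.9 at 14.5 dpc, so the ages overlapped. That sum also adds across array types and is weighted to the brightest members.

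**Figure D5:**
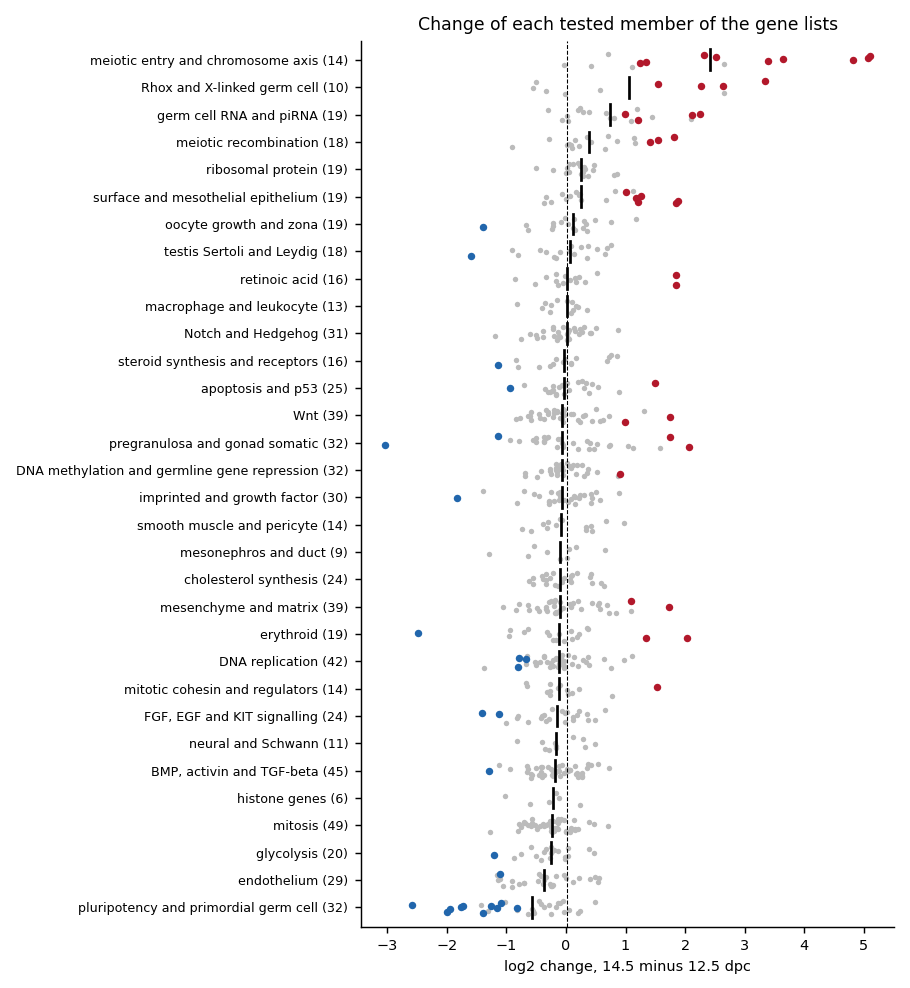
Log2 change from 12.5 to 14.5 dpc (x axis) of each tested member of the gene lists with 5 or more tested members (rows, number tested in brackets). Red points are called higher, blue called lower and grey not called, black bars are list medians and the dashed line is the median of all tested genes, 0.011. The meiotic entry list has its median at 2.41 and the pluripotency list at -0.56.

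Most called genes stood in no list: 61 of the 273 called genes were list members and 212 were not. Several of the largest rises stood outside the lists. Ugt8a, which makes galactosylceramide, had 42.7 and 22.2 at 12.5 dpc and 510.5 and 424 at 14.5 dpc (10.2-fold, adjusted p = 0.0029), and its mean was 33.5 at 18.5 dpc. Lypd4, of the family of GPI-anchored LY6 proteins, had 15.9 and 22.0 at 12.5 dpc and 309 and 339 at 14.5 dpc (9.76-fold, adjusted p = 0.00058). Larp1b, an RNA-binding protein, had 199 and 150.4 at 12.5 dpc and 1119.6 and 1399 at 14.5 dpc on an r_at probe set (6.71-fold, adjusted p = 0.0011), and its plain probe set was called higher as well. Fhl4, a LIM protein, had 216 and 249.6 at 12.5 dpc and 1453.5 and 1698 at 14.5 dpc on an f_at probe set (6.39-fold, adjusted p = 0.00016), also with a second probe set called. Inca1, an inhibitor of cyclin A1 complexes, rose 5.80-fold (adjusted p = 4.2e-05), Acss2, which makes acetyl-CoA from acetate, 5.34-fold (adjusted p = 0.0028), and Acer3, a ceramidase, had 607 and 496 at 12.5 dpc and 2578 and 2472 at 14.5 dpc (4.50-fold, adjusted p = 0.00011). All 7 calls held whichever sample of 12.5 or 14.5 dpc was left out. Alb, the plasma protein albumin of liver, and Acta1, skeletal muscle actin, rose 5.23-fold (adjusted p = 0.0018) and 5.08-fold (adjusted p = 0.0025), with means of 171 and 105 at 14.5 dpc.

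Other called genes, chosen after their values were seen and with no count of how many such genes were tested, include class I histocompatibility genes and genes known from cilia and flagella. H2-K1 had 124 and 135 at 12.5 dpc and 481 and 549 at 14.5 dpc (3.64-fold, adjusted p = 0.00011), H2-D1 rose 2.80-fold (adjusted p = 0.00081) and H2-K2 5.96-fold (adjusted p = 0.00049). Their probe sets are f_at and these genes are near copies, so they may not be separate measurements. The plain probe set of H2-K1 was not called, with 65.5 and 37.3 at 12.5 dpc and 51.8 and 69.4 at 14.5 dpc (adjusted p = 0.81). The interferon-induced GTPases Gbp2 and Gbp2b were lower over the same interval, 2.55-fold (adjusted p = 0.0045) and 2.19-fold (adjusted p = 0.043). Both were already falling from means of 496 and 390 at 11.5 dpc. Of genes known from cilia and sperm flagella, Catsper2, a subunit of the sperm calcium channel, had 28.1 and 28.2 at 12.5 dpc and 171 and 176 at 14.5 dpc (4.28-fold, adjusted p = 0.015). Cluap1, of intraflagellar transport, rose 3.41-fold (adjusted p = 0.021), Spa17, a sperm fibrous sheath protein, 2.79-fold (adjusted p = 0.0045), Pde6d, which carries lipid-tailed proteins to cilia, 2.68-fold (adjusted p = 0.00097) and Cfap161, an axonemal protein, 2.61-fold (adjusted p = 0.02). Of these, Pde6d and the 3 histocompatibility genes kept their calls whichever sample was left out, Spa17 lost its call without replicate 1 of 12.5 dpc, Gbp2 without either sample of 12.5 dpc, and Catsper2, Cluap1, Cfap161 and Gbp2b without any of the 4.

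Other falls outside the pluripotency list were of mixed kinds, and a selection is given. Cpa1, a digestive carboxypeptidase, had 544 and 244 at 12.5 dpc and 19 and 28.3 at 14.5 dpc (9.68-fold lower, adjusted p = 0.0043), after a mean of 703 at 11.5 dpc. Ap2b1, a clathrin adaptor subunit, had 609 and 503 at 12.5 dpc and 46.7 and 105 at 14.5 dpc (6.55-fold lower, adjusted p = 0.0005). Its mean was also low at 11.5 dpc, 76.0, so 12.5 dpc stood above both neighbours, and its 3 other tested probe sets were not called. Tmed9, of vesicle transport, had 400.0 and 329.7 at 12.5 dpc and 106 and 103 at 14.5 dpc (3.15-fold lower, adjusted p = 0.00049). Abundant Cfl1, the actin-severing cofilin, was chosen after its values were seen. It had 2542 and 2234 at 12.5 dpc and 885.5 and 969.7 at 14.5 dpc (2.55-fold lower, adjusted p = 0.021). Ap2b1 and Tmed9 kept their calls whichever sample was left out. Cpa1 lost its call without replicate 1 of 12.5 dpc and Cfl1 without any 1 of the 4.

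Placed in the whole course, 105 of the 202 genes called higher (52.0%) peaked at 14.5 dpc by their mean, 49 peaked at 16.5 dpc and 47 at 18.5 dpc. Among those peaking at 14.5 dpc were Stra8, Meioc, Tex12, Stag3, Rec8, Rhox13, Larp1b and Ugt8a, and among those still higher at 18.5 dpc were Sycp1, Gtsf1, Krt19, Hbb-b2 and Gng13. Of the 71 genes called lower, 47 (66.2%) had their highest mean at 12.5 dpc and 20 at 11.5 dpc. A gene called between these ages is more likely to have an extreme mean at 1 of them, and these shares are a description.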

How the data were processed

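Total RNA of pooled ovaries was measured on 3 Affymetrix array types. Each probe set has 1 signal intensity per array, scaled by the authors so that an array averages 125, per the labels. How the signals were computed from the scans is not stated in what was used here. Detection calls were not used, and no gene was called absent. The number of arrays limits the precision.

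Probe sets with a signal of at least 50 on 2 or more of the 10 arrays of a type were tested. The log2(signal + 16) values were fitted in R 4.3.3, separately for each type, by limma 3.58.1 with lmFit and a trended eBayes, all 5 ages sharing 1 estimate of spread, with 5 residual degrees of freedom. P-values were adjusted over the 3 types together. The fit was tested on simulated data. Of 36701 probe sets, 29131 had 1 gene symbol in the platform annotation, 724 several and 6846 none. A gene was read from its tested probe set of highest mean log2 signal. Types are not on a common scale, so levels were not compared between genes. The summed signals of lists add across types and are descriptions only. Probe sets with suffixes f, i, r or s can match several genes, and the suffix is not given above for every such probe set. Of the called genes, 86 had further tested probe sets, 128 in all, of which 101 changed in the same direction, 16 were called so and none the opposite way. Not all of these further probe sets are given above.

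Genes were named by size of change (the 30 largest rises and 25 largest falls with a mean signal of 100 or more at the higher age), as called members of 33 gene lists, or as fixed markers, and others after their values were seen, where so stated. Some uncalled genes given for comparison were chosen outside these rules. The members and the lists were chosen with earlier results of these data known. Promoters come from RefSeq (GRCm38.p6), matched by symbol. Alternatives changed the pseudocount, filter, scaling, fit, block, adjustment and samples, and for the lists also which probe set stands for a gene.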

Additional observations from a re-analysis of the deposited data

How the results depend on the processing

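Called probe sets numbered 412 (269 higher, 143 lower). Without an intensity trend in the variance they were 271, 173 of them higher. Leaving out 1 sample of any age gave 112 to 830 calls, 94 to 507 higher and 18 to 323 lower. The lowest came without replicate 1 of 12.5 dpc and the highest without replicate 2 of 11.5 dpc. The other settings (pseudocount 4 or 64, no filter or a floor of 100, quantile normalization, median centring, the 2 ages alone, adjustment within each type) gave 295 to 538, within 1.5 times. The 300 calls shared by the fit of the 2 ages alone were 72.8% of the 412. The replicate block gave 329 calls, 310 of them shared, but the numbers do not pair the samples: deviations of same-numbered samples of the 2 ages correlated at 0.0391, 0.0141 and -0.0227 on arrays A, B and C. Of 149 named called genes none changed direction and 49 were called under all 20 settings. With all 10 samples in, 8 to 9 members of the meiotic entry list, 9 to 11 of the pluripotency list and 3 to 6 of the surface epithelium list were called. Without a sample of 12.5 or 14.5 dpc these were 8, 1 to 5 and 2. Low signals near the added 16 limit the folds of Terb1, Meioc and Stra8, whose log2 changes ran from 3.44 to 6.41, 3.27 to 6.77 and 3.23 to 6.01 over the settings.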
